A study of Apostichopus japonicus with 12 samples.

Results

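Low dissolved oxygen without the heat treatment was compared with control water in respiratory trees of Apostichopus japonicus, a sea cucumber, using 6 of the 12 libraries of the series. The hypoxic group was 3 libraries from animals held at 2 mg/L dissolved oxygen. The control group was 3 libraries labelled as normal control. The other 6 libraries, 3 from animals under heat (26 °C) together with 2 mg/L dissolved oxygen and 3 from animals under heat alone, entered the fit to share its estimate of the spread and are used below for comparison. The sources used here do not give the temperature of the hypoxic group, the water conditions of the controls or the length of exposure. Nor do the labels say that replicates were separate animals, so the p-values below reflect spread between libraries that may be technical. Features were taken where at least 3 of the 6 libraries held at least 0.5 FPKM (fragments scaled to feature length and library size), which kept 39635 of 59494 features, 21088 with AJAP and 18547 with MSTRG identifiers. At the edge of this filter, 4304 features reached 0.5 FPKM in exactly 3 libraries and had a median level of 0.721 FPKM, while 5081 reached it in exactly 2, at a median of 0.471 FPKM, and were left out.

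The respiratory tree is a pair of branched, thin-walled tubes that open into the cloaca, and a sea cucumber ventilates them by pumping sea water in and out. In animals generally, cells short of oxygen stabilise the hypoxia-inducible factor, a transcription factor that in normoxia is hydroxylated and destroyed. In vertebrates its targets include enzymes of glycolysis, glucose transporters and factors that shift metabolism away from mitochondrial respiration. Whether these genes moved here could not be read, because the table gives identifiers without gene names and 0 of them were found in RefSeq's gene table for assembly ASM3797524v1. For the same reason the tissue label could not be checked against marker genes, and no lists of hypoxia, glycolysis, chaperone, antioxidant or respiratory chain genes could be applied. In bulk tissue, fewer cells of a type and less RNA per cell cannot be told apart.

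Whole reads could be recovered from the deposited FPKM values, and with them the depth and the length of each feature. The 6 libraries held between 20384353 and 23922209 reads, and a feature near 0.5 FPKM typically had 9 reads behind it, which gives a counting error of 33.3%. Where 4 or more libraries held reads, the recovered length was a multiple of 3 in 93.2% of AJAP and 33.4% of MSTRG features, so lengths of AJAP features are given as coding lengths. Libraries of the hypoxic group resembled each other more than those of the control group, with Pearson correlations of log2 levels across features of 0.872 to 0.888 and 0.840 to 0.852. Between the hypoxic and control groups they ran from 0.811 to 0.852.

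Under low oxygen 241 features, 0.608% of those tested, had an adjusted p under 0.05 in limma. Of these, 153 (0.386%) were higher and 88 (0.222%) were lower in the hypoxic group. The median log2 change, on the scale of log2(FPKM + 0.5), was 1.91 for the features that rose and -2.37 for those that fell, beside -0.07 for all features tested. The called features were chosen on that change, so their medians are a description. A change of more than 2 on that scale was reached by 65 of the features that rose and 58 that fell, and one of more than 3 by 24 and 14. Changes of more than 1 were seen at 7046 features in all, of which 237 were called. At an unadjusted p under 0.05 there were 6032 features (15.2%).

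**Figure D1:**
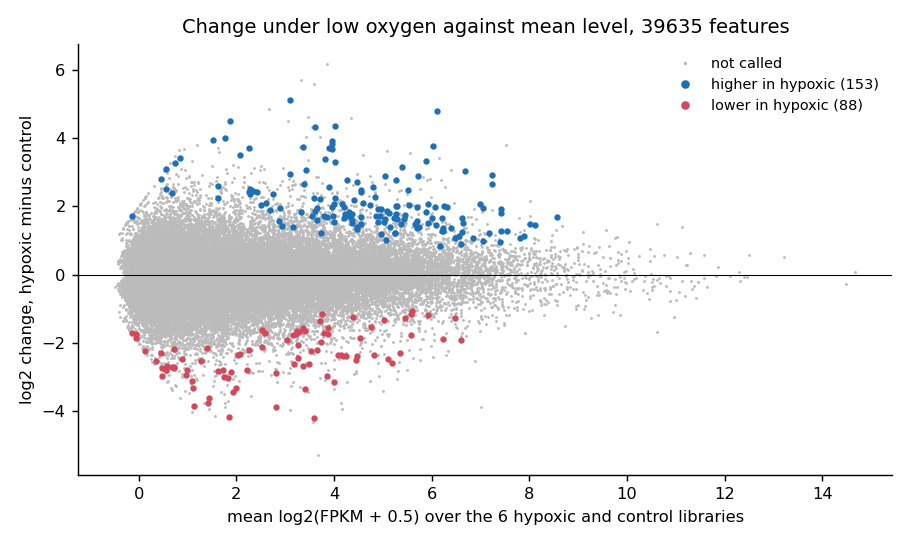
Each point is 1 of 39635 features. The horizontal axis is its mean log2(FPKM + 0.5) over the 6 hypoxic and control libraries, and the vertical axis is its log2 change, hypoxic minus control. The 153 features that rose (blue) lie mostly further right, at higher levels, than the 88 that fell (red), and the uncalled features (grey) spread widest at low levels. The level includes the hypoxic libraries, so the change itself moves a feature along the horizontal axis.

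Each identifier class is shown here by the feature with the smallest p that rose and the one that fell, among called features whose libraries did not overlap and that reached a mean of 5 FPKM in either group. What these features encode is not known from the sources used here. AJAP25783, with a coding length of 576 bases, had 131, 137 and 109 FPKM in the hypoxic libraries, against 18.04, 9.54 and 14.3 FPKM in the control libraries. The lowest hypoxic library stood far above the highest control library. Its mean was 126 ± 14.5 FPKM under low oxygen and 13.9 ± 4.26 FPKM in controls (SD, n = 3 each), a log2 change of 3.16 (SE 0.32, limma adjusted p = 0.0079), which was the smallest p of all features tested.

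MSTRG.13702, 1587 bases long, was nearly silent in control water. It held 10.5, 19.2 and 11.2 FPKM in the hypoxic libraries, against 0.114, 0.340 and 0.651 FPKM in the control libraries. The control values rest on 4, 11 and 24 reads, those of the hypoxic libraries on 379, 729 and 411. Its log2 change was 4.02 (SE 0.46, limma adjusted p = 0.0079), and scaled to depth the hypoxic libraries held 36.7 times as many reads, with a 95% interval for counting error alone of 26.7 to 51.8 (exact).

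AJAP08740, with a coding length of 1098 bases, went the other way. Its levels were 14.1, 9.71 and 12.3 FPKM in the hypoxic libraries, against 57.3, 75.8 and 57.2 FPKM in the control libraries. All hypoxic libraries lay below all control libraries, and each group was tight, at 12.03 ± 2.22 FPKM under low oxygen and 63.5 ± 10.7 FPKM in controls (SD, n = 3 each). The feature fell by 2.35 on the log2 scale (SE 0.26, limma adjusted p = 0.0079).

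MSTRG.26801, 735 bases long, almost vanished. The hypoxic libraries held 0, 0.0569 and 0.176 FPKM, which is 0, 1 and 3 reads, against 11.5, 4.67 and 8.90 FPKM from 187, 70 and 152 reads in the control libraries. In the library with 0 reads, a count of 0 allows up to 0.180 FPKM (3 reads). It fell by 3.87 on the log2 scale (SE 0.55, limma adjusted p = 0.016). With 4 hypoxic reads in all, the control libraries held 109 times as many depth-scaled reads, with an exact 95% counting interval of 42.1 to 401. In a test on the recovered reads with limma's voom this feature did not pass (adjusted p = 0.11), nor did it without control replicate 1 (limma adjusted p = 0.063), while the other named features passed both.

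**Figure D2:**
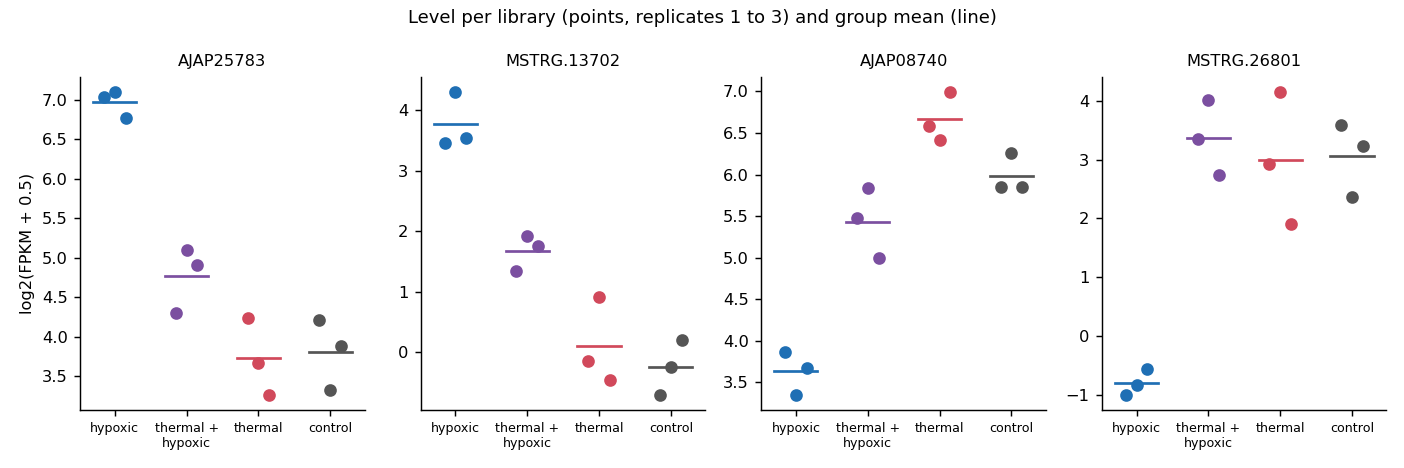
Levels of AJAP25783, MSTRG.13702, AJAP08740 and MSTRG.26801 as log2(FPKM + 0.5) in all 12 libraries, by group. Points are libraries and lines are group means. In each panel the 3 hypoxic libraries stand clear of the 3 control libraries, which was a condition of the choice. By their means the groups under heat lie nearer the controls. The choice favours large differences between hypoxic and control libraries, so this is a description.

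The named features were also read in warm water. AJAP25783 averaged 27.5 ± 7.49 FPKM under both stresses and 13.2 ± 4.73 FPKM under heat alone (SD, n = 3 each). AJAP08740 averaged 44.0 ± 12.7 FPKM under both stresses and 102 ± 21.8 FPKM under heat alone. MSTRG.13702 was at 2.73 ± 0.638 FPKM under both stresses and 0.667 ± 0.617 FPKM under heat alone, and MSTRG.26801 was at 10.5 ± 4.84 FPKM under both stresses and 9.16 ± 7.21 FPKM under heat alone. In warm water the log2 change with low oxygen, both stresses minus heat alone, was 1.04 for AJAP25783, 1.57 for MSTRG.13702, -1.23 for AJAP08740 and 0.37 for MSTRG.26801 (SE 0.32, 0.46, 0.26 and 0.55). None of these passed limma's test with adjustment over all features (adjusted p of 0.36, 0.35, 0.22 and 0.90). The unadjusted limma p was 0.0062, 0.0049, 0.00052 and 0.51. For AJAP25783, MSTRG.13702 and AJAP08740 the libraries under both stresses did not overlap those under heat alone. For AJAP25783 the gap was narrow, with 19.15 FPKM the lowest under both stresses and 18.38 FPKM the highest under heat alone. The share of all features tested without overlap in warm water was not computed. These features were picked with the warm libraries lending their spread, so the values are descriptions. The fall of MSTRG.26801 was not seen in warm water, where its libraries overlapped. The change with low oxygen in warm water minus that of the hypoxic group against control was 4.24 for MSTRG.26801 (SE 0.78) and -2.12 for AJAP25783 (SE 0.45), and neither passed the adjustment over all features (limma adjusted p = 0.44 for both). For MSTRG.13702 it was -2.45 (SE 0.65, limma adjusted p = 0.50) and for AJAP08740 it was 1.13 (SE 0.37, limma adjusted p = 0.52). This difference subtracts the change on which the features were picked. The picking thus favours a difference of the opposite sign, and its size is a description.

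Over all features that difference with temperature was called at 0 features by limma, with a smallest adjusted p of 0.395 and 3197 features (8.07%) at an unadjusted p under 0.05. Voom on the recovered reads also called 0, with 2992 at an unadjusted p under 0.05. No change is therefore shown to be particular to low oxygen without the heat treatment, and the absence of calls is no evidence that the changes were alike.

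The called features were not spread evenly over levels of expression. Among 4252 features with a mean of at least 30 FPKM over the 6 libraries, 89 rose (2.09%) and 17 fell (0.4%). Between 5 and 30 FPKM, 55 of 12729 rose (0.432%) and 45 fell (0.354%). Under 5 FPKM, 9 of 22654 rose (0.0397%) and 26 fell (0.115%). The spread between replicates moved with level in the same order, with a median SD within groups of 0.345, 0.444 and 0.655 log2 units from the highest to the lowest level, and its part in these shares was not tested. The balance of directions also differed by level: rises outnumbered falls among abundant features, and falls outnumbered rises among rare ones. This level includes the hypoxic libraries, so a rise itself moves a feature up and a fall moves it down. By group means, features that rose had a median of 13.5 FPKM in controls and 57.7 FPKM under low oxygen. Those that fell had 17.3 and 3.145 FPKM, so in controls they were not the rarer set. The balance by level is therefore a description.

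**Figure D3:**
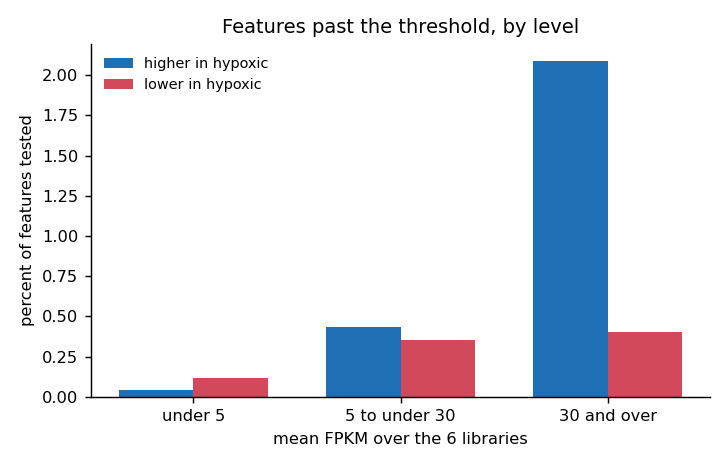
Percent of the tested features that passed the threshold, by mean FPKM over the 6 hypoxic and control libraries, for features higher (blue) and lower (red) in the hypoxic group. Rises reach 2.09% at 30 FPKM and over, and falls stay at or under 0.4% at all levels. The level includes the hypoxic libraries, so a rise or fall itself moves a feature between levels.

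AJAP features made up 53.2% of the features tested, 79.7% of those that rose and 62.5% of those that fell. Of AJAP features 122 rose (0.579%) and 55 fell (0.261%), and of MSTRG features 31 rose (0.167%) and 33 fell (0.178%). At a mean of at least 30 FPKM over the 6 libraries the share that rose was close, at 78 of 3677 AJAP features (2.12%) and 11 of 575 MSTRG features (1.91%). Under 30 FPKM it was 44 of 17411 (0.253%) and 20 of 17972 (0.111%). The shares that fell were 0.408% of AJAP and 0.348% of MSTRG features at 30 FPKM and over, and 0.23% and 0.172% under it. Levels were not matched within these ranges. MSTRG features that rose had a median log2 change of 2.40, and AJAP features that rose one of 1.84. Of those that fell the medians were -2.47 and -2.35. These medians are over features called on that same change, so they are descriptions. MSTRG features varied more between replicates, with a median SD under 30 FPKM of 0.682 log2 units, against 0.475 for AJAP features. The smallest change called among rises was 1.38 for MSTRG and 0.84 for AJAP features. Among falls its size was 1.57 and 1.07.

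The rule that chose the features did not use length directly. FPKM are scaled to length, so at a given FPKM a longer feature rests on more reads. The median coding length was 993 bases for AJAP features that rose and 903 bases for those that fell, beside 987 bases for all tested AJAP features. MSTRG features that fell were longer, at a median of 1484 bases (quartiles 735 and 2408), than those that rose, at 937 bases (quartiles 575 and 1971). All tested MSTRG features had a median of 1003 bases (quartiles 540 and 1943), so the quartiles overlap widely.

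Together the features that rose held 1.81%, 1.93% and 1.51% of the summed FPKM in the hypoxic libraries, against 0.473%, 0.486% and 0.531% in the control libraries. The features that fell held 0.0688%, 0.0683% and 0.0941% in the hypoxic libraries, against 0.354%, 0.322% and 0.267% in the control libraries. These sums follow from the way the features were called and are given as a description.

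A typical feature that rose had a median level of 59.4, 60.02 and 42.4 FPKM in hypoxic replicates 1, 2 and 3, against 11.9, 12.2 and 13.3 FPKM in control replicates 1, 2 and 3. Among the features that fell the medians were 2.52, 2.97 and 3.73 FPKM in the hypoxic libraries, against 18.6, 15.01 and 15.5 FPKM in the control libraries. Hypoxic replicate 3 thus lay nearest the controls in both sets. It was the lowest of the hypoxic libraries at 84 of the 153 features that rose (54.9%), beside 25.01% of all features tested, and the highest of them at 48 of the 88 that fell (54.5%), beside 44.6%.

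**Figure D4:**
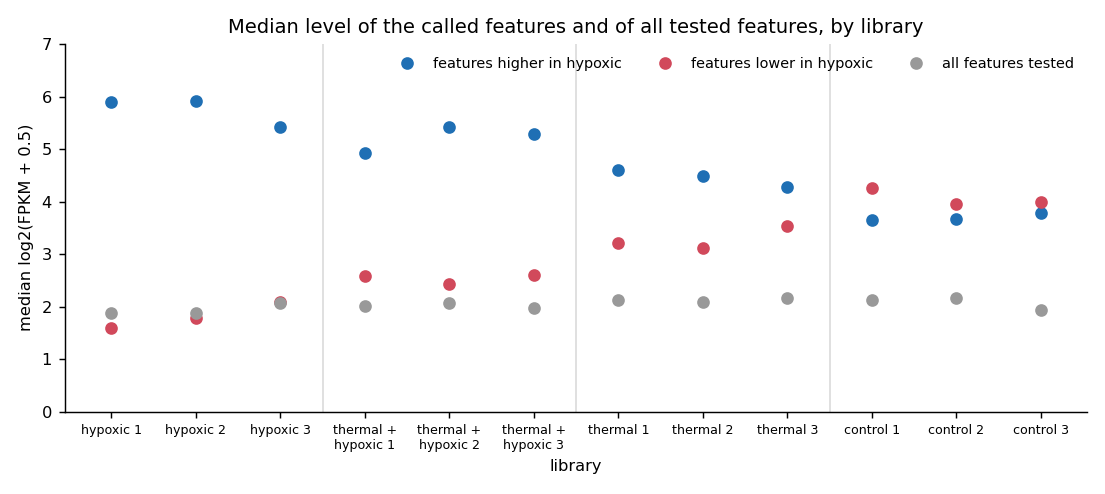
Median log2(FPKM + 0.5) of the 153 features that rose (blue), the 88 that fell (red) and all features tested (grey) in each of the 12 libraries. The called sets were chosen on the hypoxic and control libraries, so their separation there is a description. The libraries under heat fall in between, those with low oxygen nearer the hypoxic group. The choice sets the hypoxic and control medians apart, which favours a place in between for the other groups. Their place is therefore a description too.

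The same features can be read in the groups under heat. Those that rose had a median log2 change of 1.34 under both stresses against control and 0.67 under heat alone against control, and those that fell had -1.64 and -0.84. The corresponding medians over all features tested were -0.05 and 0.03. All of these changes are measured against the same control libraries as the low-oxygen change itself. Low oxygen in warm water, both stresses against heat alone, shares no library means with it, although the warm libraries lent their spread to the calls. To keep the spread apart as well, features were also called on the 6 hypoxic and control libraries alone. That fit gave 87 features (0.220%), 56 higher and 31 lower, of which 60 were among the 241. Of the 56, 52 (92.9%) were also higher with low oxygen in warm water, beside 44.0% of all features tested, with a median log2 change of 1.11 against 2.74 in the hypoxic group against control. Of the 31, 27 (87.1%) were also lower, beside 55.8% of all, with medians of -1.05 and -2.97. In warm water an unadjusted p under 0.05 went with that direction at 36 of the 56 and 14 of the 31, beside 1377 (3.47%) higher and 2180 (5.50%) lower of all features tested. These warm-water values are descriptions, since earlier results of the same data were known. The medians of 2.74 and -2.97 are over features called on that same change, which favours large sizes. How far the change differed in size in warm water can therefore not be read from these medians.

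Some features had no reads in a whole group. Such a feature passes the filter only if all 3 libraries of the other group reach 0.5 FPKM. That its groups do not overlap, and the lower end of its levels, thus follow from the filter. Among the 39635 features tested, 33 had 0 reads in all hypoxic libraries, with control means between 0.693 and 11.8 FPKM (median 1.38). A further 39 had 0 reads in all control libraries, with hypoxic means between 0.652 and 11.2 FPKM (median 1.43). Most features of either set were not among those called by limma. In each of these sets 31 were MSTRG features, beside 18547 of all 39635 features tested. Levels were not matched in this comparison. With a mean under 5 FPKM over the 6 libraries, 37.6% of the features tested were AJAP, against 53.2% at all levels. Most features of both sets had reads in other groups. Of the 33, 26 had reads under both stresses and 27 under heat alone, and of the 39 it was 36 and 32.

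The most abundant transcripts lay on both sides of no change. The 100 features with the highest mean, 94 of them AJAP, ran from 799 to 27050 FPKM and had log2 changes between -1.70 and 1.49, with a median of -0.11. The smallest adjusted p among them was 0.061 by limma, and 16 of the 100 had an unadjusted p under 0.05, 9 of them higher and 7 lower, a share near the 15.2% of all features tested. By voom on the recovered reads the smallest adjusted p among them was 0.029, and 24 had an unadjusted p under 0.05. They took 29.8%, 29.5% and 26.1% of the summed FPKM in the hypoxic libraries, against 28.3%, 26.6% and 33.2% in the control libraries. These shares overlapped, and an exact two-sided permutation test of the means gave p = 0.8, where 3 libraries against 3 cannot go below 0.1.

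Measures of broad composition overlapped between the groups. At 0.5 FPKM or more, 36721, 37111 and 38884 features were detected in the hypoxic libraries, against 39294, 39057 and 38077 in the control libraries (exact two-sided permutation p = 0.2). MSTRG features took 16.7%, 17.3% and 18.5% of the summed FPKM in the hypoxic libraries, against 20.2%, 20.2% and 16.3% in the control libraries (exact two-sided permutation p = 0.4). In both measures control replicate 3 lay among or beyond the hypoxic libraries. The libraries of the hypoxic and control groups did not overlap at 8149 features (20.6%), of which 3779 (9.53%) had all hypoxic libraries above all control libraries, and 4370 (11.0%) had all below.

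The number of calls depended strongly on single libraries. Limma called 0 features without hypoxic replicate 1 (4550 at an unadjusted p under 0.05) and 0 without hypoxic replicate 2 (4628), and the named features lost their calls in both cases, with adjusted p of 0.051 to 0.083. Leaving out hypoxic replicate 3 gave 137 calls, and leaving out a control library gave 56 (replicate 1), 44 (replicate 2) or 96 (replicate 3). Of the libraries under heat, 3 also moved the count by more than 1.5 times, to 132 and 112 (both stresses, replicates 2 and 3) and to 97 (heat alone, replicate 1). Voom on the recovered reads called 74 features (0.187%), 71 of them among the 241.

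**Figure D5:**
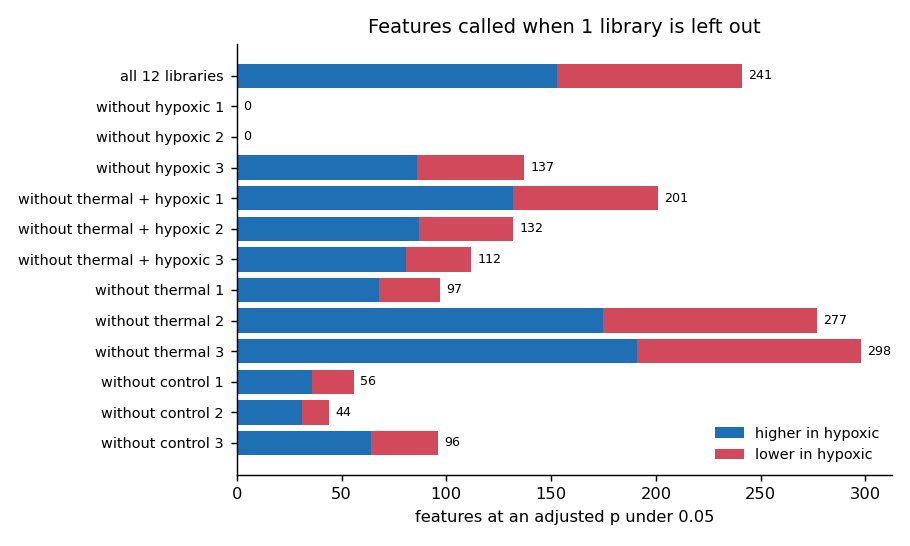
Features called at an adjusted p under 0.05, higher (blue) and lower (red) in the hypoxic group, with all 12 libraries and with each library left out. The count is 241 with all libraries and 0 without hypoxic replicate 1 or 2.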

How the data were processed

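FPKM values deposited by the authors were analysed, 1 column per library. The tools named in the submitters' processing notes are TopHat2 2.0.12, Bowtie2 2.2.3, DESeq 1.16 and Cufflinks. Which step each served, the genome build, and whether counting used strand, is not given in the sources used here. Reads of overlapping features or near-identical copies may therefore have been split or lost. Per the labels' protocols, RNA was depleted of ribosomal RNA and libraries were directional.

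Library totals were found as the numbers at which the FPKM values of a feature become whole reads at a whole length (tolerance 0.002 reads). All 59494 features gave whole reads, 52959 of them with reads in 4 or more libraries. Of 1000 features drawn from the latter and tried with wrong totals, 1.30% did. That trial searched a shorter range of lengths, so the shares are not from the same search. The reads of 6535 features with reads in under 4 libraries, 23 of them tested, are less certain, and held 0.042% of reads. Reads carry no molecular identifiers, so intervals cover counting error only.

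The test ran on features at 0.5 FPKM or more in 3 or more of the 6 libraries, as log2(FPKM + 0.5), which understates changes of low features, with limma 3.58.1 in R 4.3.3. One mean for each of 4 groups and a trend of variance on level were fitted to 12 libraries, with Benjamini-Hochberg adjustment over 39635 features and a threshold of 0.05. The fit and the recovery were tested on simulated data. For the fit, these held large changes in well-covered features only. Their spread between libraries, before counting noise, was set below the fitted one. The simulation is thus easier than the data and does not show how the fit does on weaker changes. Alternatives were pseudocounts, filters, scalings, a replicate block, robust variance, the 6 libraries alone, voom and leaving out each library. Library summaries used an exact permutation test (numpy 2.4.6, pandas 2.3.3, scipy 1.17.1, Python 3.11.15), and figures matplotlib 3.10.9. Named features are, for each identifier class and direction, the smallest p among called features whose libraries do not overlap, with a mean of at least 5 FPKM in either group. Lists and rules were chosen with earlier results of these data known.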

Additional observations from a re-analysis of the deposited data

How the results depend on the processing

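Of the 241 features called under low oxygen, the count moved to 89 with no filter, 372 with a filter at 2 FPKM, 87 on the 6 libraries alone, 74 with voom on recovered reads and 106 with a replicate block, and ran from 0 to 298 when single libraries were left out. It stayed within 1.5 times under other pseudocounts (209 and 261), median-of-ratios (267) and quantile scaling (259), robust variance (244) and a filter over all 12 libraries (191). The cause was not tested. Same-numbered hypoxic and control libraries did not deviate together across features (correlations of -0.00728, -0.0195 and -0.0582). No pairing by number was thus seen, but the sources used here do not say how replicates were numbered or paired. The difference with temperature was called at 0 features under every alternative run (the 6 libraries alone cannot give it). The share of the 100 most abundant features, lower in the hypoxic group by a mean difference of -0.885 percentage points, ran from -2.27 to 1.04 when single libraries were left out, and changed sign without hypoxic replicate 3 (0.295) and without control replicate 3 (1.04). MSTRG.26801 also missed the threshold without control replicate 1 (adjusted p = 0.063; range over its alternatives 0.010 to 0.11). Depth limits features near 0.5 FPKM, typically 9 reads.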
